A study of Mus musculus with 12 samples.

Results

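A set of 10 genes that are known for their expression in choroid plexus epithelium was followed through bulk RNA-seq libraries of the mouse dorsal raphe (DR). The members were Ttr, F5, Sostdc1, Folr1, Prlr, Kl, Clic6, Aqp1, Slc4a5 and Otx2. They were taken by gene symbol, and all 10 of them were found among the 24421 genes listed in the count files. The rule used symbols alone, although the set was proposed with earlier results of these data known.

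The choroid plexus hangs in the brain ventricles and secretes cerebrospinal fluid. Its epithelial cells sit on leaky capillaries, move salt, bicarbonate and water into the ventricle, and release transthyretin (TTR), which carries thyroid hormone and retinol. The plexus of the fourth ventricle and the ependymal cells that line the aqueduct both lie near the DR, a midbrain nucleus that holds serotonergic neurons.

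The 12 libraries came from 12 mice, with 1 library per animal. Controls were Sert-Cre/+; Stat3 fl/+ animals (n = 4, 2 females and 2 males), and STAT3 KO mice were their Sert-Cre/+; Stat3 fl/fl littermates (n = 8, 4 females and 4 males). Every animal therefore carried the Cre gene and at least 1 floxed Stat3 allele, on a C57BL/6 x 129 background. All mice were single-housed and were 8 to 16 weeks old when the experiments began. Cre was driven by the serotonin transporter gene, so deletion was directed to cells that express this transporter. The DR was cut as a square of about 1.5 mm from 4 sections of 300 µm below the aqueduct. The labels give no batch. No mouse appears in more than 1 library, and p values measure the spread between mice.

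Library depth was 24379588 to 29645210 reads on genes. Levels are given in CPM, the count of a gene scaled by this depth. The floor of 3 counts used here equals 0.101 to 0.123 CPM, and this floor covers counting error only. Serotonergic tissue was present throughout, with Tph2, the enzyme of serotonin synthesis, at 539 to 883 CPM. Gene-level values of Stat3, the targeted gene, were 64.4 to 67.0 CPM in the 4 controls, and those of STAT3 KO animals ran from 62.9 to 71.0 CPM. These counts do not separate the deleted exons from the others and include every cell of the tissue piece, so they do not check the genotype labels.

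The libraries of STAT3 KO 8, a male, and STAT3 KO 16, a female, stood apart from the other 10 in Ttr. The genotype differences of the 10 genes are therefore given with and without them.

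Ttr encodes the main secreted protein of the choroid plexus. In controls it was read at 16, 51, 37 and 66 counts in animals 3, 4, 11 and 13, or 0.589, 1.83, 1.41 and 2.71 CPM. In STAT3 KO mice the lowest library had 3 counts (0.110 CPM, STAT3 KO 14), the median was 40.5 counts (1.38 CPM), and the highest had 5918 counts (213 CPM, STAT3 KO 8). STAT3 KO 16 followed with 5706 counts (204 CPM), and STAT3 KO 6 was next with 102 counts (3.64 CPM). The 2 high libraries thus lay at least 55.9-fold above each of the other 10, while the remaining 6 STAT3 KO libraries spanned and exceeded the control range on both sides. Over all 12 libraries Ttr varied by 10.2 on the log2 CPM scale, and only 0.0129% of 15453 genes tested varied more. In bulk tissue, fewer cells of a type and less RNA per cell cannot be told apart.

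The mean of Ttr was 1.63 ± 0.88 CPM (SD, n = 4) for controls against 53.1 ± 96.0 CPM (SD, n = 8) for STAT3 KO animals, whereas the group medians were 1.62 and 1.38 CPM. In edgeR's quasi-likelihood test the log2 fold change for STAT3 KO minus control was 5.01 (SE 1.98; unadjusted p = 0.0231; adjusted p = 0.615 over 15453 genes). The exact permutation test of mean log2 CPM over all splits into 4 and 8 animals gave p = 0.618, where the smallest p it allows is 0.00202. The unadjusted p was no longer below 0.05 without control 3 or without control 11, where the log2 fold change was 4.73 and 4.95. Without STAT3 KO 8 and STAT3 KO 16 the log2 fold change was -0.35. DESeq2, which replaces counts that lie far from the rest of their group, gave -0.24 with all animals and 5.00 when this replacement was switched off, and limma-voom with sample weights gave 0.17. The direction of Ttr between genotypes thus depended on these 2 libraries.

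**Figure D1:**
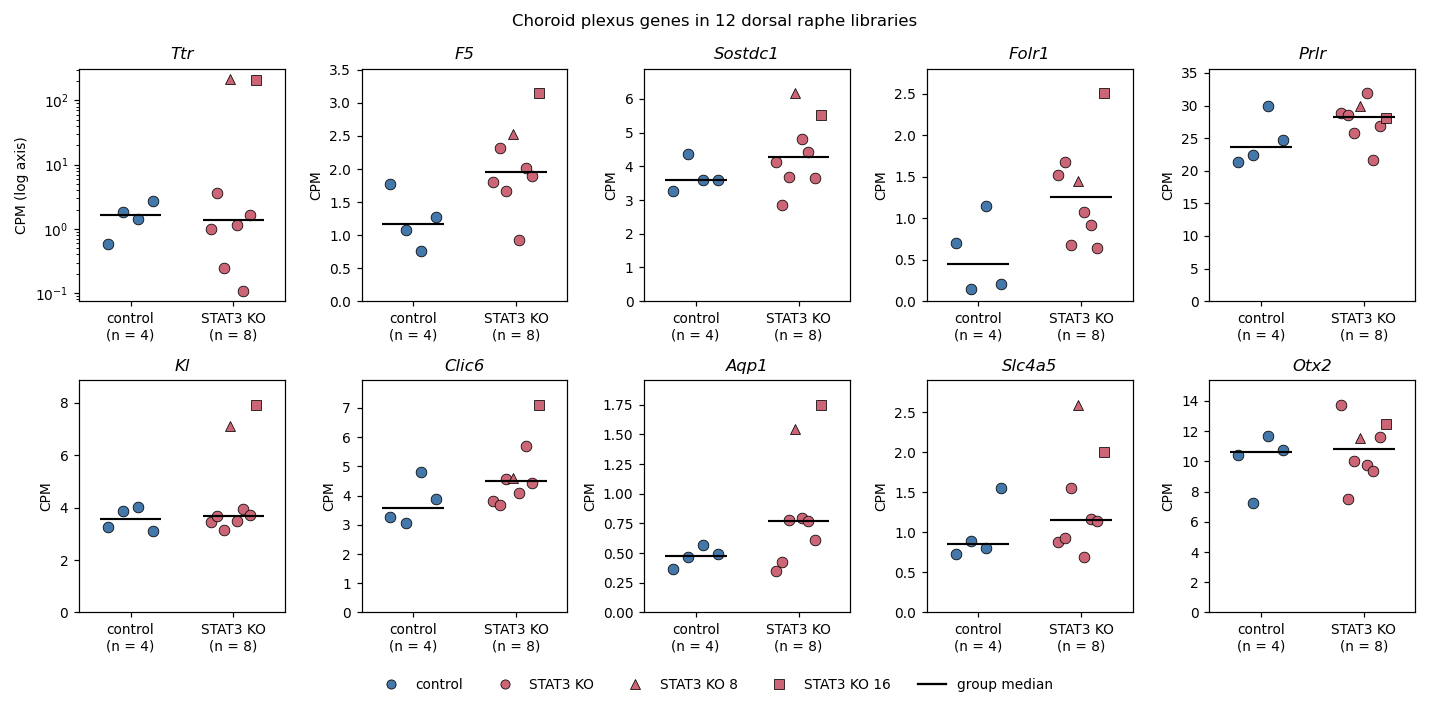
Level of each of the 10 genes in CPM (y axis, logarithmic for Ttr and linear from 0 for the others) in every library of controls (blue, n = 4) and STAT3 KO mice (red, n = 8). Lines mark group medians, the triangle is STAT3 KO 8 and the square is STAT3 KO 16; these 2 lie at 213 and 204 CPM in Ttr and above every other library in Kl, Aqp1, Slc4a5, Sostdc1 and F5.

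The same 2 libraries were the 2 highest of all 12 for 6 of the 10 genes. These were Ttr, Kl, Aqp1, Sostdc1, Slc4a5 and F5. Of all 15453 genes tested, 3.46% had these 2 libraries on top, and 0.00647% also had a gap of at least 2-fold to the next library, which Ttr alone showed. The count for the 10 genes includes Ttr, which defined the pair. STAT3 KO 16 was among the 2 highest libraries for 9 genes, with Prlr as the exception, and STAT3 KO 8 was among them for 7. The size of the step differed strongly. The lower of the 2 libraries exceeded the highest of the others 55.9-fold for Ttr, 1.95-fold for Aqp1, 1.77-fold for Kl, 1.28-fold for Slc4a5, 1.15-fold for Sostdc1 and 1.09-fold for F5. Summed over the 10 genes, the level was 281 and 274 CPM in STAT3 KO 8 and STAT3 KO 16 and 45.4 to 59.6 CPM in the other libraries. Ttr made up 76.0% and 74.3% of this sum in the 2 libraries and 0.219% to 6.59% in the others. Without Ttr the sums were 67.5 and 70.5 CPM against 43.6 to 58.6 CPM.

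Among the receptors, Kl, which encodes klotho, a co-receptor for fibroblast growth factor 23, showed the clearest step after Ttr and Aqp1. Controls 3, 4, 11 and 13 had 89, 108, 106 and 76 counts. STAT3 KO animals ranged from 3.15 CPM to 7.93 CPM with a median of 3.70 CPM, and the 2 highest were STAT3 KO 16 (222 counts) and STAT3 KO 8 (198 counts). The other 10 libraries lay within 3.12 to 4.04 CPM regardless of genotype. The means were 3.58 ± 0.45 CPM (SD, n = 4) and 4.56 ± 1.86 CPM (SD, n = 8), with a log2 fold change of 0.32 (SE 0.25; edgeR adjusted p = 0.827; exact permutation p = 0.317). It was 0.20 without STAT3 KO 8, 0.17 without STAT3 KO 16 and -0.02 without both.

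Folr1, the high-affinity folate receptor that carries folate across the choroid plexus, followed another order of libraries. It had 19, 4, 30 and 5 counts in controls 3, 4, 11 and 13, or 0.699, 0.144, 1.14 and 0.205 CPM. STAT3 KO libraries ranged from 19 counts (0.641 CPM) to 70 counts in STAT3 KO 16, with a median of 1.26 CPM. All 8 of them lay above the control mean of 0.548 ± 0.469 CPM (SD, n = 4), and 4 lay above the highest control, so the groups overlapped. For STAT3 KO animals the mean was 1.30 ± 0.62 CPM (SD, n = 8). The log2 fold change was 1.22 (SE 0.47; edgeR unadjusted p = 0.0210, adjusted p = 0.615), and the exact permutation test gave p = 0.0263. The unadjusted p was no longer below 0.05 without control 4 (0.89), without control 13 (0.96) or without STAT3 KO 8 and 16 (0.95), and the log2 fold change was 1.85 without control 11. Of the libraries, 2 of 4 controls and 8 of 8 STAT3 KO reached the 0.358 CPM that the filter on low counts asked for in 4 libraries, so Folr1 entered the test through the STAT3 KO group. In STAT3 KO 6 and STAT3 KO 5, where Ttr was at 3.64 and 0.987 CPM, Folr1 was at 1.68 and 1.52 CPM, above the 1.44 CPM of STAT3 KO 8. The gene lies at chr7:101858331-101870788 (GRCm38, minus strand), where Anapc15 runs on the other strand without sharing exon bases with it. Anapc15 was read at 280 to 366 counts and had a log2 fold change of -0.0002.

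Prlr, the receptor for prolactin, had the most reads of the 10 genes outside the 2 high libraries. Controls 3, 4, 11 and 13 had 21.3, 22.4, 29.9 and 24.7 CPM, and STAT3 KO animals ranged from 21.6 CPM to 31.8 CPM with a median of 28.3 CPM, so the groups overlapped widely. The means were 24.6 ± 3.8 CPM (SD, n = 4) and 27.7 ± 3.1 CPM (SD, n = 8). STAT3 KO 10 was highest, and STAT3 KO 16 ranked in the middle of the libraries at 28.1 CPM. Between genotypes it differed by 0.15 on the log2 scale (SE 0.10; edgeR adjusted p = 0.769; exact permutation p = 0.154), and by 0.13 without STAT3 KO 8 and 16. Prlr moved more with single controls, to 0.09 without control 3 and to 0.26 without control 11, where the unadjusted edgeR p was below 0.05, as it also was without STAT3 KO 14. In females alone the difference was 0.29 (edgeR unadjusted p = 0.0127, adjusted p = 0.227) and in males alone 0.01.

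Of the channels and transporters, Aqp1, the water channel of the epithelium's ventricular face, was read at 10, 13, 15 and 12 counts in controls (0.368, 0.467, 0.572 and 0.492 CPM). STAT3 KO libraries ranged from 0.352 to 1.75 CPM with a median of 0.774 CPM. STAT3 KO 8 and 16 had 43 and 49 counts, and the next library, STAT3 KO 10, had 23. Although 6 of 8 STAT3 KO libraries lay above the highest control, STAT3 KO 5 was the lowest of all 12. The means were 0.475 ± 0.084 CPM (SD, n = 4) and 0.879 ± 0.506 CPM (SD, n = 8). Its log2 fold change was 0.86 (SE 0.41; edgeR adjusted p = 0.652; exact permutation p = 0.121) and became 0.37 without the 2 libraries. Its unadjusted edgeR p was below 0.05 when STAT3 KO 5, 6 or 15 was left out. Counting error alone was 28.3% of the mean in controls, more than the spread of 17.7% between these animals.

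Slc4a5, a sodium bicarbonate cotransporter, was read at 20, 25, 21 and 38 counts in controls and at 0.691 to 2.59 CPM in STAT3 KO animals (median 1.16 CPM). STAT3 KO 8 and 16 were highest with 72 and 56 counts, followed by control 13 and STAT3 KO 7 at 1.56 CPM each. This gave a log2 fold change of 0.44 (SE 0.34; edgeR adjusted p = 0.829; exact permutation p = 0.297), against 0.08 without the 2 libraries, 0.25 without STAT3 KO 8 alone and 0.73 without control 13.

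Clic6, a member of the chloride intracellular channel family, had 89, 85, 126 and 95 counts in controls and 103 to 199 counts in STAT3 KO mice. STAT3 KO 16 was highest at 7.11 CPM, whereas STAT3 KO 8 was at 4.61 CPM, below STAT3 KO 14 and control 11. The means were 3.76 ± 0.78 CPM (SD, n = 4) and 4.75 ± 1.14 CPM (SD, n = 8), with a log2 fold change of 0.32 (SE 0.18; edgeR adjusted p = 0.723; exact permutation p = 0.115), and 0.20 without the 2 libraries. Without STAT3 KO 16 alone it was 0.21, and without control 11 it was 0.46 with an unadjusted p below 0.05. Clic6 thus separated the 2 libraries that Ttr placed together.

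A further pair of members is secreted. F5, coagulation factor V, a cofactor in thrombin formation, had 48, 30, 20 and 31 counts in controls, or 1.77, 1.08, 0.763 and 1.27 CPM. STAT3 KO libraries ranged from 0.932 to 3.14 CPM with a median of 1.95 CPM. In 6 of 8 STAT3 KO animals it was above the highest control, and STAT3 KO 10 lay within the control range. The means were 1.22 ± 0.42 CPM (SD, n = 4) and 2.04 ± 0.65 CPM (SD, n = 8). F5 had a log2 fold change of 0.71 (SE 0.28; edgeR unadjusted p = 0.0207, adjusted p = 0.615; exact permutation p = 0.0465), and this unadjusted p was no longer below 0.05 without control 4 (0.66), without control 11 (0.55) or without STAT3 KO 8 and 16 (0.52).

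Sostdc1, a secreted antagonist of BMP and Wnt signalling, had 89, 122, 94 and 88 counts in controls and 80 to 171 counts in STAT3 KO animals (median 4.28 CPM). STAT3 KO 8 was highest at 6.16 CPM and STAT3 KO 16 followed at 5.54 CPM, while STAT3 KO 6 was the lowest of all libraries at 2.86 CPM. Sostdc1 had a log2 fold change of 0.22 (SE 0.17; edgeR adjusted p = 0.835; exact permutation p = 0.277), 0.14 without STAT3 KO 8 alone and 0.06 without the 2 libraries.

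Otx2, the homeodomain transcription factor required to form the choroid plexus and also used by midbrain cells, differed least between genotypes. It had 284, 201, 306 and 262 counts in controls and 211 to 390 counts in STAT3 KO mice. STAT3 KO 5 was highest at 13.7 CPM and control 4 lowest at 7.22 CPM. The medians were 10.6 and 10.8 CPM, and the log2 fold change of 0.08 (SE 0.15; edgeR adjusted p = 0.951; exact permutation p = 0.584) turned to -0.05 when control 4 was left out. It was 0.17 without control 11, 0.03 without STAT3 KO 5 and 0.03 without STAT3 KO 8 and 16.

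Read against all genes, none of the 10 passed the adjusted threshold of 0.05 (0 of 10; 0.0% of 15453 genes passed it). Unadjusted p values below 0.05 were found for 3 of 10, Ttr, Folr1 and F5, all higher in STAT3 KO, against 7.66% of all genes in either direction and 3.61% in this direction. The exact permutation test was below 0.05 for 2 of 10, Folr1 and F5, against 7.23% of all genes. Folr1 passed the filter through the group where it was higher, so its place in both counts follows in part from the filter. Control and STAT3 KO values overlapped for each of the 10, and 0.492% of all genes had groups without overlap. The log2 fold change was above 0 for all 10, against 49.4% of all genes, and the median over the 10 was 0.38, a value exceeded by 3.49% of all genes. These 10 values are not independent of each other, since 6 of them share their 2 highest libraries.

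Without STAT3 KO 8 and STAT3 KO 16, the log2 fold change was above 0 for 8 of 10 genes (50.5% of 15387 genes tested), and the median was 0.11, exceeded by 17.4% of all genes. An unadjusted p below 0.05 was found for 0 of 10 with edgeR and 0 of 10 with DESeq2, while 10.7% of all genes had such a p with edgeR. The comparison of fold changes with and without these libraries places Ttr and Kl below 0 and the others between 0.03 and 0.95.

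**Figure D2:**
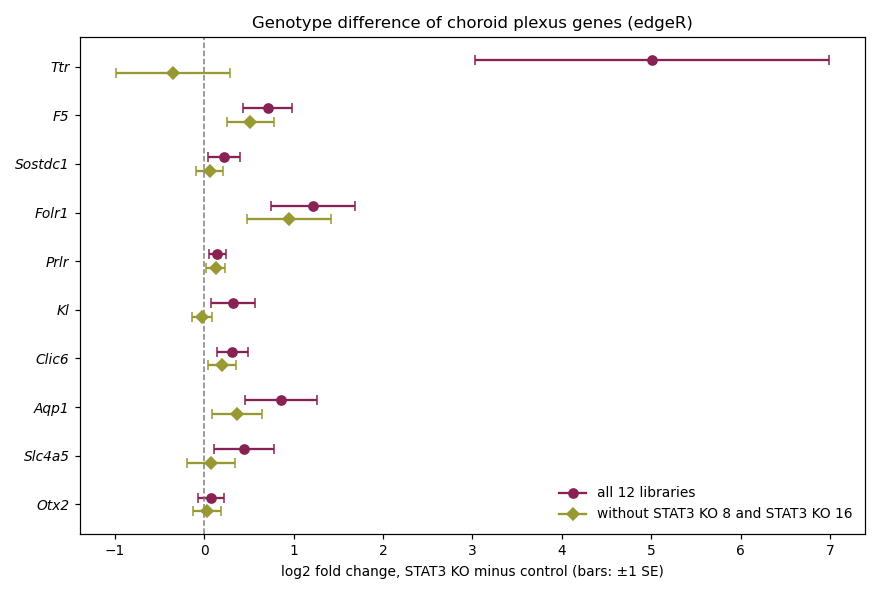
Log2 fold change of STAT3 KO minus control (x axis, bars ±1 SE, edgeR) for each of the 10 genes, with all 12 libraries (circles) and without STAT3 KO 8 and STAT3 KO 16 (diamonds). Ttr moves from 5.01 to -0.35 and Kl from 0.32 to -0.02, while Folr1 goes from 1.22 to 0.95 and F5 from 0.71 to 0.52.

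Covariation with Ttr was asked next. Because the 2 high libraries form a cluster of their own, no Pearson correlation and no test over all 12 is given, and Ttr was compared with the other 9 genes over the remaining 10 libraries. Among these, Ttr still varied from 0.110 to 3.64 CPM. Spearman's rho ranged from -0.47 for Clic6 (r = -0.56; permutation p = 0.177 for rho and 0.0924 for r) to 0.25 for Prlr (r = 0.42; permutation p = 0.491 and 0.230). With each library left out in turn, rho ran from -0.67 to -0.27 for Clic6 and from 0 to 0.37 for Prlr, and without control 3 Clic6 had r = -0.71 (permutation p = 0.0340). It was above 0 for 3 of 9 genes, Kl, Slc4a5 and Prlr, against 50.2% of all genes. With all 10 libraries, unadjusted p values below 0.05 were found for 0 of 9 by Spearman's rho (5.48% of all genes) and 0 of 9 by Pearson's r (4.48%), and adjusted over all genes by the Benjamini-Hochberg method 0 of 9 passed. Kl, whose 2 highest libraries were those of Ttr, had rho = 0.03 here. The relation to Ttr was thus seen as a step in 2 libraries and was not detected among the other 10 at 3 to 102 Ttr counts per library.

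The sizes of the step could be compared between the 2 libraries, which is a description of 2 animals and not a test. Relative to the median of the other 10 libraries, Ttr was 167-fold higher in STAT3 KO 8 and 160-fold in STAT3 KO 16. For Kl these ratios were 1.99 and 2.21, for Aqp1 2.91 and 3.29, for Slc4a5 2.84 and 2.19, and for Sostdc1 1.68 and 1.51. Per 1000 CPM by which Ttr exceeded that median, Kl exceeded its own by 16.8 ± 2.4 CPM in STAT3 KO 8 and 21.5 ± 2.6 CPM in STAT3 KO 16, where the error is the counting error of Kl. For Aqp1 the values were 4.80 ± 1.11 and 6.01 ± 1.23 CPM, for Slc4a5 7.93 ± 1.44 and 5.37 ± 1.32 CPM, and for Sostdc1 11.8 ± 2.2 and 9.25 ± 2.20 CPM. These differed by little more than counting error between the 2 animals. For Clic6 they were 2.96 ± 1.92 and 15.4 ± 2.5 CPM and for Folr1 2.99 ± 1.08 and 8.36 ± 1.48 CPM. Both genes were higher in STAT3 KO 16 by more than counting error, which leaves out the spread between animals. The other 10 libraries spanned 3.05 to 5.71 CPM for Clic6 and 0.144 to 1.68 CPM for Folr1. STAT3 KO 8 lay within both ranges, at 4.61 and 1.44 CPM.

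The search was then widened to every gene with at least 10 counts in both libraries (15054 genes). The lower of STAT3 KO 8 and 16 was at least 2-fold above the highest of the others for 3 genes, Ttr, Kcne2 (3.78-fold) and Kcnj13 (3.18-fold). A ratio of at least 1.5 added Aqp1, Wdr86 (1.94-fold) and Kl. This limit and the names of these non-members were chosen after their values were seen. All 6 are on the list of the 10 genes or on a list of 24 other genes of choroid plexus epithelium. Both lists were written from general knowledge with earlier results of these data known. Ttr defined the pair of libraries. Kcne2, Kcnj13 and Wdr86 entered the search through the 2 libraries where they are high, so this overlap is not independent support. Slc4a5 came next by this ratio. The first gene on neither list, Zfp850, had a ratio of 1.27 and was followed by Ebi3 and Abca4.

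Kcne2, a potassium channel subunit that is known in the ventricular membrane of the plexus, had 46 and 52 counts in STAT3 KO 8 and 16 and 3 to 13 counts elsewhere. Kcnj13, the potassium channel Kir7.1, had 26 and 72 counts in these animals and 0 to 8 elsewhere, with control 3 the next highest. Wdr86 had 18 and 14 counts against 2 to 7, and Prr32 had 13 and 9 against 0 to 3. These 4 genes did not pass the filter on low counts of the main test.

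Enpp2, which encodes autotaxin, was the most abundant of the 24 at a mean of 515 CPM in controls. It was also highest in STAT3 KO 8 (608 CPM) and STAT3 KO 16 (588 CPM), with 397 to 544 CPM in the other libraries, and its log2 fold change between genotypes was -0.07 (edgeR adjusted p = 0.915), or -0.16 without these 2 libraries (edgeR unadjusted p = 0.0173). It is also expressed by oligodendrocytes. Without Enpp2, the rest of this list summed to 220 CPM in STAT3 KO 8 and 248 CPM in STAT3 KO 16. The other libraries ran from 211 CPM in control 4 to 244 CPM in control 3, so STAT3 KO 8 lay within their range. Of the 19 genes of the list that passed the filter, 2 had STAT3 KO 8 and 16 as their highest libraries (3.46% of all genes).

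**Figure D3:**
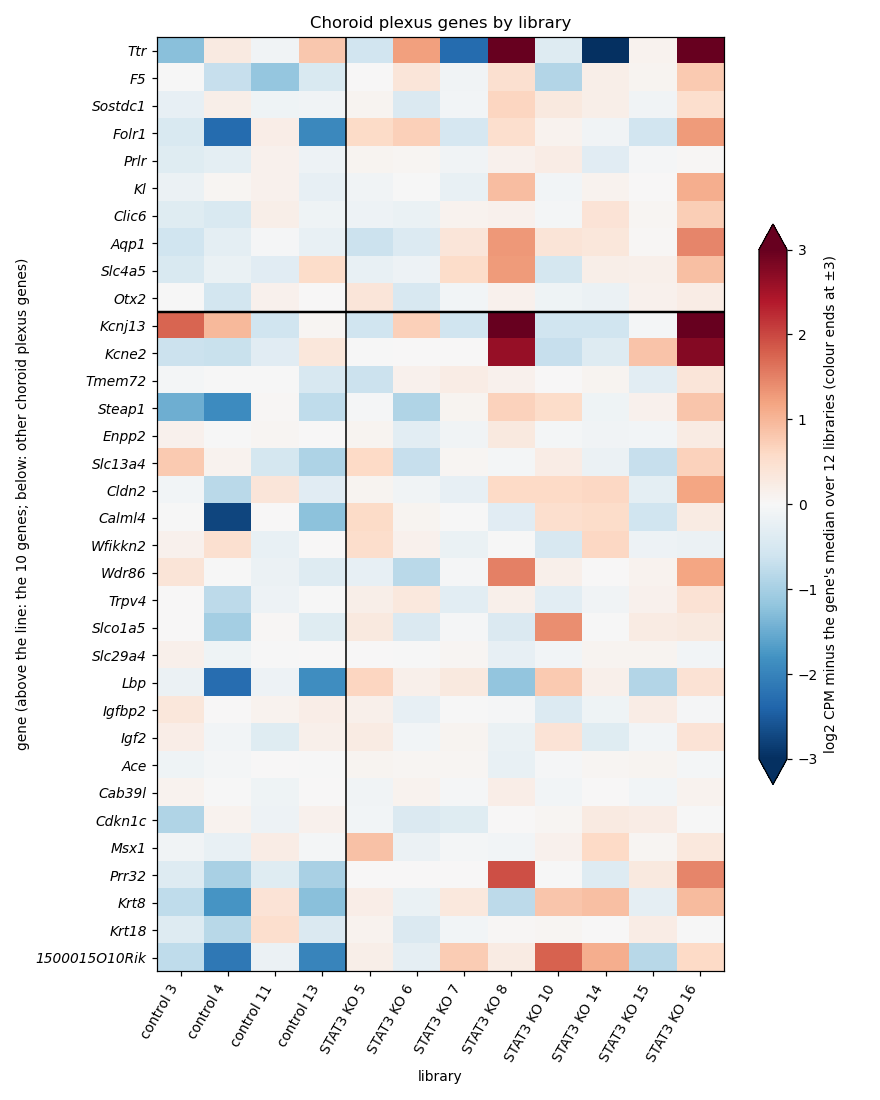
Log2 CPM of each gene minus its median over the 12 libraries (colour, ends at ±3) for the 10 genes (above the line) and 24 other choroid plexus genes (below), with controls on the left and STAT3 KO on the right. Ttr, Kcnj13, Kcne2, Aqp1, Wdr86, Kl and Prr32 are red in STAT3 KO 8 and STAT3 KO 16, whereas Folr1, Calml4, Lbp, Krt8 and 1500015O10Rik are blue in controls 4 and 13.

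In the genotype comparison 19 of the 24 other choroid plexus genes passed the filter, 0 were called, and 15 had a log2 fold change above 0 (49.4% of all genes), with a median of 0.13. Without STAT3 KO 8 and 16, 12 of 18 were above 0 (50.5% of all genes), with a median of 0.09. With all libraries, 5 of 19 had an unadjusted p below 0.05 in the direction of STAT3 KO (3.61% of all genes): Steap1 (1.35), Calml4 (0.83), the lipopolysaccharide-binding protein Lbp (0.98), the keratin Krt8 (1.19) and 1500015O10Rik (1.70). Of these, Steap1 and Krt8 averaged 0.154 and 0.171 CPM in controls and reached the 0.358 CPM of the filter in 0 and 1 of 4 controls, against 4 of 8 STAT3 KO libraries each. They entered the test through the group where they were higher, so their places in the count follow from the filter, and Steap1 was not tested without STAT3 KO 8 and 16. Igfbp2, an insulin-like growth factor binding protein, was lower by the same measure (-0.24). Except for Steap1, the 5 genes with positive values did not have STAT3 KO 8 and 16 as their 2 highest libraries. Lbp and 1500015O10Rik were highest in STAT3 KO 10, where Ttr was at 1.14 CPM.

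Folr1, Calml4, Lbp, Krt8 and 1500015O10Rik were all low in controls 4 and 13, and these 2 libraries also held the least RNA of ependymal markers. Each of these genes was higher in STAT3 KO with an unadjusted p below 0.05. Low control values follow in part from this choice. All 10 of 10 markers of ciliated ependymal cells, among them Foxj1, the master regulator of motile cilia, were read in the libraries. Their summed level ranged from 28.8 to 89.9 CPM in controls and from 50.1 to 126 CPM in STAT3 KO animals. Controls 4 and 13 were lowest, at 28.8 and 37.9 CPM, and were also the lowest for Folr1. Other libraries differed in the order of the 2 measures: Folr1 was highest in STAT3 KO 16 and 6, which ranked 6 and 7 of 12 for the ependymal sum, and STAT3 KO 7 ranked 4 for this sum but 9 for Folr1. STAT3 KO 10, 14, 5 and 7 were highest in the ependymal sum, and STAT3 KO 8 ranked 10 of 12 at 50.1 CPM. Each of the 10 markers had a positive log2 fold change (49.4% of all genes), with a median of 0.85, and 6 had an unadjusted p below 0.05 (3.61% of all genes in this direction), with 0 called. These were the cilium genes Ccdc153 (1.08), Rsph1 (0.86), Dynlrb2 (0.76), Ak7 (0.94), Tekt1 (0.65) and Spef2 (0.59). Without STAT3 KO 8 and 16 the median was 0.97 and 10 had an unadjusted p below 0.05 (10.7% of all genes in either direction). The 10 markers are not independent of each other, since they mark the same cell type. Each was highest in STAT3 KO 10, 14 or 7. The part of these cells in the genotype difference of Folr1 was not tested.

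The ependymal markers were also compared with Ttr. Over the 10 libraries without STAT3 KO 8 and 16, Spearman's rho with Ttr was below 0 for 10 of 10 markers, from -0.76 for Mia to -0.50 for Rsph1. An unadjusted permutation p below 0.05 was found for 6 of them by rho (5.48% of all genes) and for 1, Mia, by Pearson's r (4.48%), where r was -0.64 to -0.44. After adjustment over all genes 0 passed (lowest adjusted p = 0.857 for rho and 0.919 for r). Without STAT3 KO 7 and 14, the 2 of these libraries farthest from the median of Ttr, rho was -0.69 to -0.31. Pearson's r was then -0.50 to -0.27. Here too the 10 markers are not independent of each other.

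**Figure D4:**
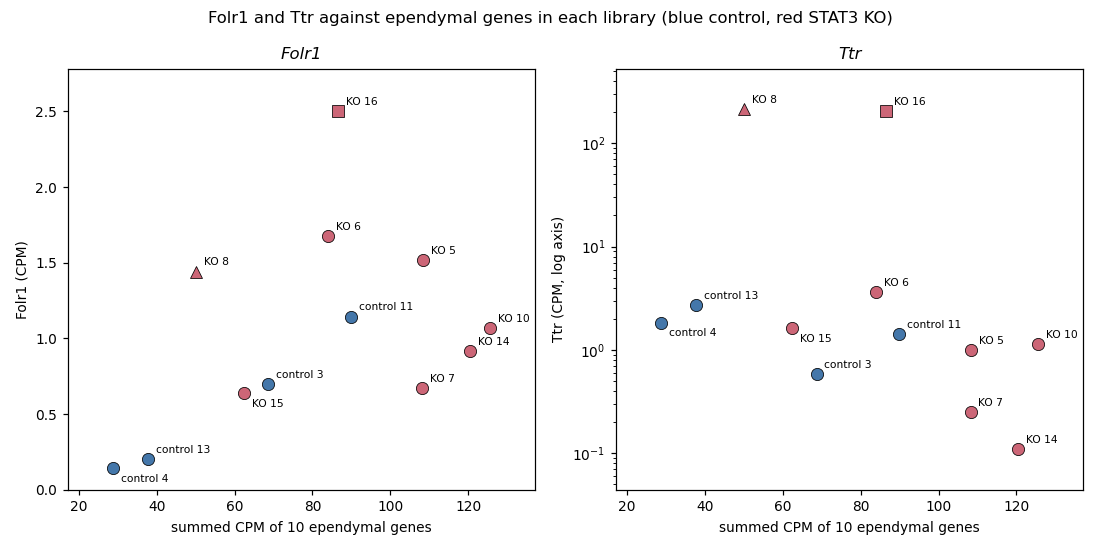
Folr1 (left, CPM) and Ttr (right, CPM, logarithmic axis) in each library against the summed CPM of 10 ependymal genes (x axis), with controls in blue and STAT3 KO in red. Controls 4 and 13, lowest on the x axis at 28.8 and 37.9 CPM, are also lowest in Folr1, while STAT3 KO 8 has 213 CPM of Ttr at 50.1 CPM of ependymal genes.

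Markers of other cells that accompany the plexus were also read. The 8 leptomeningeal markers summed to 40.7 to 58.5 CPM in controls and 44.6 to 58.8 CPM in STAT3 KO animals, with 45.2 CPM in STAT3 KO 8 and 58.8 CPM in STAT3 KO 16. Of these, 6 of 8 had a negative log2 fold change, where 49.4% of all genes had a positive one. Dcn, decorin, alone had an unadjusted p below 0.05 (0.20), against 7.66% of all genes. Plvap, which marks fenestrated capillaries, was at 12.3 ± 1.5 CPM (SD, n = 4) for controls against 13.1 ± 1.3 CPM (SD, n = 8) for STAT3 KO mice, and Emcn, an endothelial sialomucin, had a log2 fold change of -0.02. Of 5 blood genes, Hba-a1, Hba-a2, Hbb-bs and Hbb-bt had 0 counts in all 12 libraries. These globin genes have near-identical copies whose reads the counting may have left out, so the 0 sets no limit on their level. Alas2 was at 1.84 to 19.1 CPM and did not peak in STAT3 KO 8 or 16 (3.60 and 3.11 CPM). The 7 serotonergic genes included none with an unadjusted p below 0.05 between genotypes (7.66% of all genes).

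Partners of the 10 genes' pathways were read from lists written from general knowledge, and edgeR called 0 of their genes. Among 10 genes for thyroid hormone and retinol handling, the functions TTR serves, 9 passed the filter and 3 had an unadjusted p below 0.05 (7.66% of all genes). Lrp2, the endocytic receptor megalin, averaged 1.49 CPM for controls against 3.28 CPM for STAT3 KO mice (log2 fold change 1.11; edgeR adjusted p = 0.615; exact permutation p = 0.00404), without overlap between the groups (0.492% of all genes). Dio2, the deiodinase that activates thyroid hormone, was at 35.9 and 24.7 CPM (-0.56, also without overlap), and Slco1c1, a thyroxine transporter, at 62.8 and 56.7 CPM (-0.17). DESeq2 called Lrp2 as its only gene of these lists (0.03% of all genes with an adjusted p in DESeq2). The highest libraries of Lrp2 were STAT3 KO 10 and STAT3 KO 5, which were among the 3 highest for ependymal markers.

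Over all genes, 49.4% had a log2 fold change above 0 and 7.66% had an unadjusted p below 0.05. Each list in this paragraph is to be read against these shares. For fluid secretion, 7 of 9 ion and water transport genes had a negative log2 fold change (median -0.095). The sodium potassium chloride cotransporter Slc12a2 (-0.17) and the sodium pump subunit Atp1b1 (-0.12) had an unadjusted p below 0.05. These genes are used widely by neurons and glia, and none had the 2 highest libraries of Ttr. Folate transport and use gave 0 genes with such a p among 5 tested, with Slc46a1, the proton-coupled folate transporter, at 0.09 and Slc19a1, the reduced folate carrier, at -0.04. Of the prolactin and klotho partners, 6 of 7 passed the filter, and Cish, a feedback inhibitor of cytokine signalling, had such a p (-0.24), while Fgfr1, the receptor partner of klotho, was at 0.11. Lrp4, the receptor that binds Sostdc1, was at -0.21 with such a p among 6 BMP and Wnt partners, and F3, tissue factor, at -0.16 among 4 coagulation genes tested, all 4 with negative values.

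Genes most like Ttr in rank order over all 12 libraries, among 2231 genes with a log2 CPM range of at least 1, were A4galt and Gm16294 (rho 0.81 each), Zfp831 and Has2 (0.80 each), Map3k7cl, Higd1b and Hsd17b1 (0.73 each), Il1r1 and Ly6a (0.72 each) and Ptpn18 (0.71). These values are descriptive, since genes were searched for them. By the same measure the 9 other members had lower values, from 0.48 for Slc4a5 and 0.43 for Kl to 0.03 for Clic6.

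With all libraries, the log2 fold change of males minus females ranged from -0.18 for Otx2 to 0.13 for Kl, with 0 of 10 genes below an unadjusted p of 0.05 (7.2% of all genes) and 0 called (0.0841%). The 2 libraries with high Ttr were of different sex, so the sex difference of Ttr, 0.09 (SE 1.44) with both, was -3.78 without STAT3 KO 8, 4.54 without STAT3 KO 16 and 0.68 without both. The unadjusted edgeR p of Ttr was below 0.05 with either of them left out alone and not with both left out, and its adjusted p was 0.782 or more in each case. Kl had a sex difference of 0.41 without STAT3 KO 16 and 0.23 without both, each with an unadjusted p below 0.05, and of -0.05 without STAT3 KO 8. For the other 8 genes the sex difference without both ran from -0.20 for Otx2 to 0.15 for Clic6. The interaction of genotype and sex was below 0.05 for 0 of 10 genes (5.49%). With all libraries F5 had the largest interaction, 0.95 (SE 0.53; edgeR adjusted p = 0.934), with a genotype difference of 1.22 in males and 0.28 in females. Ttr had an interaction of 0.07 with all libraries, -4.85 without STAT3 KO 8 and 6.08 without STAT3 KO 16. Without STAT3 KO 8 and 16 the interaction of F5 was 1.23 (edgeR unadjusted p = 0.0172).

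All 10 are protein-coding genes. On GRCm38, Ttr lies at chr18:20665280-20674321, F5 at chr1:164151838-164220277 and Sostdc1 at chr12:36314139-36318452. Prlr lies at chr15:10177238-10349180 and Kl at chr5:150952607-150993817, both on the plus strand like the genes before. Clic6 at chr16:92485736-92541243, Aqp1 at chr6:55336432-55348555 and Slc4a5 at chr6:83219828-83304945 are also on this strand, and Otx2 at chr14:48657677-48673819 is on the minus strand. Otx2 shares 154 exon bases with the antisense Otx2os1, which had 0 to 10 counts, and F5 shares 262 with Gm16548, which had 0 to 4. Since the strand setting of the counting is not given, reads there cannot be assigned to either gene.

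Levels of different genes can be compared only per length, so CPM was divided by the exonic length of each gene in kilobases. Over all 12 libraries the medians were 2.51 CPM per kb for Otx2, 2.19 for Sostdc1, 1.79 for Prlr, 1.28 for Ttr, 1.09 for Clic6, 0.432 for Folr1, 0.396 for Kl, 0.240 for F5, 0.224 for Aqp1 and 0.179 for Slc4a5. Neighbours in this order overlapped in their ranges in each of the 9 cases. Clic6 exceeded Folr1, and Kl exceeded F5, in 12 of 12 libraries, whereas Otx2 exceeded Sostdc1 in 7 and Ttr exceeded Clic6 in 6. In STAT3 KO 8, Ttr reached 180 CPM per kb, the highest value of the 10 genes in a library.

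Promoters of Kl and Aqp1 are shown because these genes had the clearest step together with Ttr, and a promoter of Prlr because this gene had no such step. Each is 250 bases before a RefSeq start on GRCm38.p6, on the plus strand, and none overlaps an annotated exon. Capitals mark matches to the forkhead core GTAAACA, the OTX2-type core TAATCC or the STAT element TTCNNNGAA on either strand. The windows are chr5:150952357-150952606 for Kl, chr6:55336049-55336298 for Aqp1 and chr15:10223656-10223905 for Prlr, which is the window with matches among 3 given for this gene.
Aqp1: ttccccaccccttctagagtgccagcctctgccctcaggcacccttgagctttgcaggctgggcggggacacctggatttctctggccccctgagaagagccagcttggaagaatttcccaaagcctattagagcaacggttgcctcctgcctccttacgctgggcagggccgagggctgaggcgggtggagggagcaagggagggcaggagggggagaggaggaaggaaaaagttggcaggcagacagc
Kl: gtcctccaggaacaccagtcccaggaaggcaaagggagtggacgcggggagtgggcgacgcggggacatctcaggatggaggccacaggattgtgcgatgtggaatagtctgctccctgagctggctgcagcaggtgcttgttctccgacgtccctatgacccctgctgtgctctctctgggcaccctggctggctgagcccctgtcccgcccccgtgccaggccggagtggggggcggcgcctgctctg
Prlr: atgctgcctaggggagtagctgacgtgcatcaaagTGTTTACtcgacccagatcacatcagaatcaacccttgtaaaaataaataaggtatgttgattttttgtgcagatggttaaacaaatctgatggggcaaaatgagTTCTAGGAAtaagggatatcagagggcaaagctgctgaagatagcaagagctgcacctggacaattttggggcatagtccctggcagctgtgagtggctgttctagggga

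The windows of Kl and Aqp1 held 0 matches to the 3 motifs. That of Prlr held a forkhead match 215 bases and a STAT match 110 bases before the start. Over 32851 promoter windows of the same length, TAATCC was found in 6.25%, GTAAACA in 3.17% and TTCNNNGAA in 7.02%. RefSeq windows were given for 6 of the 10 genes, with 11 windows in all, and 9 of the 11 held no match. The exceptions were the Prlr window shown and an Otx2 window with 1 match each to the OTX2-type core and the STAT element. A match is a description of the letters and says nothing of binding.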

How the data were processed

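The authors made 1 RNA-seq library from the DR of each of 4 control and 8 STAT3 KO mice and mapped its reads to mm10 with STAR 2.5.0b per the submitters' processing notes. The deposited files hold raw counts per gene symbol. The counter, annotation and strand setting are not given in the sources used here. The 2 lines per file for reads not assigned to one gene (13.9% to 15.8%) were left out. Between any pair of libraries, differences were 5.24 to 29.1 times counting noise, so none was a copy.

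CPM used all gene counts as library size, and log2 CPM a prior count of 2. The main test was edgeR 4.0.16 (R 4.3.3), two-sided quasi-likelihood, TMM normalisation, filterByExpr by genotype, no covariate, Benjamini-Hochberg adjustment over 15453 genes, threshold 0.05. The SE follows from the log2 fold change and the square root of its F statistic. Sex was tested with genotype in the model. Correlations used 100000 permutations. Scripts were tested on simulated counts. Alternatives were DESeq2 1.42.0, the likelihood ratio test, limma 3.58.1 (voom), RLE, other filters, sex as covariate, other scales and prior counts, and each animal or STAT3 KO 8 and 16 left out. DESeq2 without replacement of outlying counts, DESeq2 without those 2 animals, single-sex fits, and the interaction without those 2 were chosen after seeing the data. Gene positions are GENCODE M21 (GRCm38), and overlaps with other genes' exons cover at most 3.98% of a member's exons.

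The 10 members and all lists were chosen with earlier results of these data known. The text names all members, genes of the other lists with an unadjusted p below 0.05 for genotype or the 2 highest libraries of Ttr with a 2-fold gap, and the genes most like Ttr. One gene of these lists is not reported here and is left out of their counts, but not of the tests over all genes. Other named list genes were chosen after their values were seen.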

Additional observations from a re-analysis of the deposited data

How the results depend on the processing

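The genotype test called none of the genes tested under any alternative run, which was 10 of 10 except with at least 10 counts in every library, where Ttr and Folr1 were not tested and 8 remained. The count with an unadjusted p below 0.05 was 3, and 0 without STAT3 KO 8 and 16 together by edgeR and by DESeq2, 1 in males only, and 1 (without control 4) to 4 with each animal left out in turn. The log2 fold change of Ttr turned to -0.24 with DESeq2, -0.35 without the 2 libraries and -0.36 with DESeq2 without them, and that of Kl to -0.022 and -0.025 in the last 2. That of Otx2 ranged from -0.047 to 0.17 with each animal left out. The exact permutation count of 2 became 1 with TMM, 0 on the CPM scale, 0 without the 2 libraries, and 0 to 2 with each animal left out. For sex and for the interaction, the count below an unadjusted p of 0.05 was 0 and became 1 without the 2 libraries (sex 0 to 2, interaction 0 to 1 with each animal left out). Correlation with Ttr gave 0 to 1 genes by Pearson's r. The other lists had 21 genes with an unadjusted p below 0.05 (11 to 28 with each animal left out). Over all genes this share was 7.66%. In these lists edgeR called 0 genes and DESeq2 called 1 (0.03% of all genes with an adjusted p in DESeq2). The causes were not tested. The labels give no litter or other pairing of controls with STAT3 KO animals. No paired analysis was therefore possible, and litter was not in the model. Counting error in controls was largest for Aqp1 and Folr1, at 28.3% and 26.3% of the mean, followed by Slc4a5 (19.6%) and F5 (17.6%).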
